A study of Mus musculus with 6 samples.

Results

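The Ly6 surface antigens were taken as the 5 symbols Ly6a, Ly6e, Ly6c1, Ly6c2 and Ly6k. Of these, 4 are among the 15528 gene symbols of the count table and 3 (Ly6a, Ly6e and Ly6c1) passed the low-count filter that left 11208 genes; Ly6k was not analysed here. The set was chosen by the measured counts of Ly6a, whose fall between these control and treated libraries was already known. The values of the members in the comparison below are therefore given as a description, without p-values, though calls at an adjusted p under 0.05 are stated.

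The libraries come from mouse cells whose label reads lymphatic endothelial cells (the lining of lymphatic vessels), in a study of bleeding beneath the arachnoid membrane and the neck lymph nodes. There were 3 control libraries without a named treatment and 3 libraries of cells given red blood cells, all at 24 h. The labels give no strain, age, culture origin or dose, and do not state whether replicates are separate cultures or animals, so the spread between libraries may be technical. Marker genes support the label in part only. Only 5 of 14 lymphatic endothelial and 3 of 16 pan-endothelial markers had enough counts for a test. In CPM, counts scaled to the library's total of listed counts, pan-endothelial markers summed to 111.3 to 123.0 among controls. Lymphatic endothelial markers summed to 418.8 to 522.1 CPM. Epithelial and mesothelial markers summed to 658.3 to 737.8 CPM, and fibroblast and mural markers to 443.2 to 493.7 CPM. The lists differ in their genes, and which cell types were present was not tested. Among markers named here for their use in defining endothelium, over the 3 controls Nr2f2 had 8630 counts, Pecam1 802 and Flt4 193, while Pdpn had 6, Cdh5 7 and Kdr 0, and Prox1 and Lyve1 have no row in the table used.

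Ly6 proteins are small, cysteine-rich proteins held at the outer cell membrane by a lipid anchor, glycosylphosphatidylinositol (GPI), and belong to the same fold family as the urokinase receptor uPAR. Their genes sit side by side in clusters, one of them on mouse chromosome 15. Ly6a, known as Sca-1, marks blood stem cells and many endothelial and mesenchymal progenitors. Both Ly6a and Ly6e are usual targets of interferons, the cytokines that signal viral or immune danger through receptor-bound kinases. Ly6c1 is found on endothelium of small vessels, Ly6c2 on inflammatory monocytes, and Ly6k mainly in male germ cells.

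All 3 tested Ly6 genes had lower levels with red blood cells, with each treated library below each control, an ordering found in 9.19% of the tested genes. The edgeR fit across all genes called 1 of them, Ly6a, among the 0.303% of tested genes called lower. Since Ly6a was chosen for its fall, nothing is read from that count. The members shared a direction, and Ly6a and Ly6c1 were alike in size while Ly6e fell less. By the point estimate the controls were 1.96-fold higher for Ly6a, 2.01-fold for Ly6c1 and 1.28-fold for Ly6e. RNA of whole cell populations cannot tell fewer cells of a type from less RNA per cell.

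Ly6a had 260, 263 and 249 counts in control replicates 1 to 3 and 144, 112 and 144 counts in the treated replicates. As CPM, counts scaled to the library's total of listed counts, the controls lay at 15.1, 14.3 and 14.0 and the treated libraries at 8.0, 6.11 and 8.0. The lowest control was thus above the highest treated library by a wide margin, and treated replicate 2 was the lowest of the 6. The log2 fold change was -0.97 ± 0.11 (SE), a level 48.9% lower. It was the 8th lowest of all 11208 fitted values, a rank that partly restates the choice of Ly6a. Ly6c1, with a wider error, was 5th lowest and Ly6e 233rd. For Ly6a the controls varied by 3.91% (SD over mean) against 6.23% expected from counting alone, and the treated libraries by 14.8% against 8.66%.

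Ly6e, which limits the entry of some enveloped viruses and serves in the fusion of placental cells, had the most counts of the set, with 1645, 1949 and 1660 counts in control replicates 1 to 3 and 1498, 1304 and 1371 counts with red blood cells. The corresponding levels were 95.3, 106 and 93.0 CPM against 83.2, 71.2 and 76.1 CPM. The groups did not overlap, with control replicate 2 the highest and treated replicate 2 the lowest library. The log2 fold change of -0.35 ± 0.08 (SE) was not called by edgeR and was called by DESeq2, which called 0.437% of its 13724 genes lower.

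Ly6c1 was scarce. It had 37, 60 and 52 counts in the control replicates and 26, 29 and 20 counts with red blood cells, or 2.14, 3.26 and 2.91 CPM against 1.44, 1.58 and 1.11 CPM. The highest treated library lay below the lowest control, but the controls alone varied by 20.7% (SD over mean). The log2 fold change was -1.01 ± 0.22 (SE), as large as that of Ly6a with a wider error, and was not called.

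Ly6c2, the near copy of Ly6c1 that marks monocytes, had 1 count in control replicate 1 and 1 in treated replicate 3. The other libraries had 0, so a group held less than the floor of 3 counts (0.0561 CPM in the controls) and no comparison was made. Reads of Ly6c1 and Ly6c2 can match either gene, and how the authors' counting treated them is not given in the sources used here. To compare the promoters of the pair, their most upstream windows in RefSeq are printed, with matches to the TATA box core TATAAA in capitals. The windows run from 250 bases before to 50 after an annotated start (build GRCm38.p6, minus strand). The first is chr15:75048788-75049087 and the second chr15:75111922-75112221.
Ly6c1: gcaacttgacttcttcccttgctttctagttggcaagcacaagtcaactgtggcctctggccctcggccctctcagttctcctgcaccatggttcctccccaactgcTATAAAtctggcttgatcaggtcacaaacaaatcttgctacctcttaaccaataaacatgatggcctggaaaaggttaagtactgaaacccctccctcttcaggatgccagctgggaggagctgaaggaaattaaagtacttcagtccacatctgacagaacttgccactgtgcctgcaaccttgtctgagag
Ly6c2: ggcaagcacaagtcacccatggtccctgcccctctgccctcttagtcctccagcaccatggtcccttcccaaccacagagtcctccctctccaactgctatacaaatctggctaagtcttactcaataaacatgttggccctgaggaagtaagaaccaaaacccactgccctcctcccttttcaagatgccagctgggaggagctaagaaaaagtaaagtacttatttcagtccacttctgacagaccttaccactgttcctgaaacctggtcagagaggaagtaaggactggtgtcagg
A local alignment of the windows held 288 columns, of which 214 (74.3%) were identical. Most of each window lies before the start, so this likeness does not show how often reads match both genes. TATAAA, searched on both strands, matched once in the Ly6c1 window, starting 143 bases before the start, and not in that of Ly6c2. It is present in 13.6% of all 32544 distinct promoter windows of this length. Neither window holds the gamma-activated site TTCNNNGAA or the core TTTCNNTTT of the interferon-stimulated response element, found in 8.33% and 10.5% of all windows. No match was overlapped by another motif. These are letter matches only. Ly6a, Ly6e and Ly6k have no entry in that table.

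**Figure D1:**
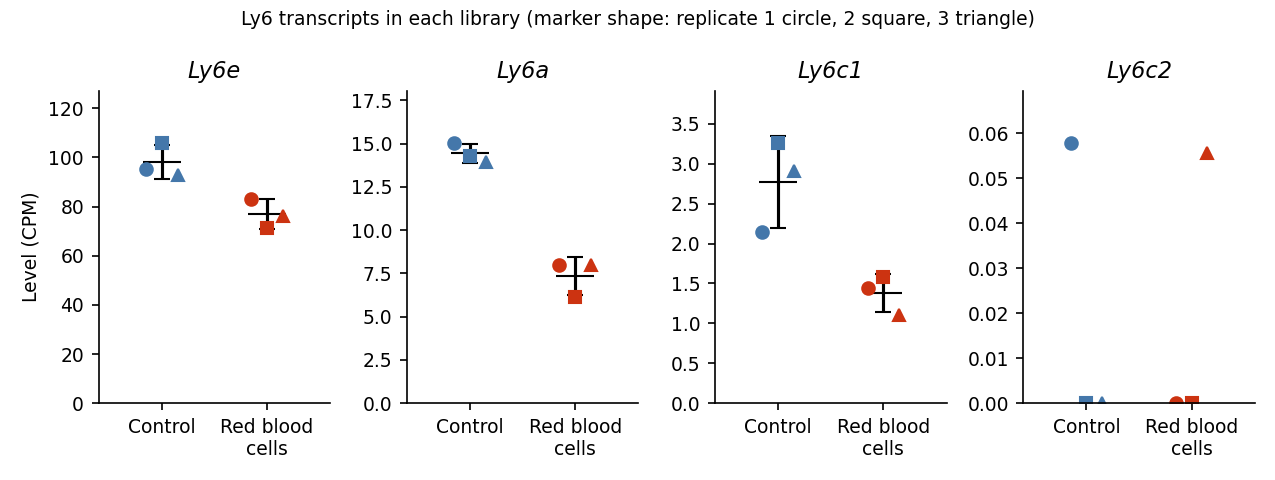
Level in CPM (y axis, from 0, a separate scale for each gene) of the 4 listed Ly6 genes in the 3 control (blue) and 3 red blood cell (red) libraries. Lines and bars are mean and SD, not drawn for Ly6c2, where 1 count gives each nonzero point. For Ly6e, Ly6a and Ly6c1 each treated library lies below each control.

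Per length of gene model, as FPKM, the order of the members was the same in each library. Ly6e had 37.7 ± 2.67 FPKM among controls and 29.5 ± 2.33 with red blood cells (SD, n = 3), Ly6a 14.4 ± 0.563 and 7.35 ± 1.09, and Ly6c1 1.64 ± 0.339 and 0.816 ± 0.143. Neighbours in this order were apart in each library by far more than their spread. The ratio of Ly6e to Ly6a in FPKM was 2.44, 2.85 and 2.57 among controls and 4.0, 4.48 and 3.66 with red blood cells. Because the fall of Ly6a chose the set, this shift largely restates that choice. The ratio of Ly6a to Ly6c1 was 9.11 ± 2.40 among controls and 9.34 ± 2.82 with red blood cells (SD, n = 3), with overlapping libraries.

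Library totals ranged from 17263359 to 18381419 counts. Control replicate 2 stood apart from the others, its counts differing from control replicates 1 and 3 by a mean chi-square of 28.1 and 26.7 a gene, while those differed from each other by 1.99. Short transcripts were higher in that library, and the Ly6 genes are short. Genes within 1.1-fold of the length of Ly6a (1002 bases) were higher in control replicate 2 than in the other controls by a median of 0.28 on the log2 scale, while Ly6a itself differed by -0.02. For Ly6c1 (1691 bases) the median was 0.18 and its own value 0.31, and for Ly6e (2603 bases) 0.08 and 0.17. Without control replicate 2 all 3 members were called lower, where 3.77% of tested genes were, with log2 fold changes of -0.98 for Ly6a, -0.87 for Ly6c1 and -0.29 for Ly6e. Ly6a kept its call with each library left out, a description only, since it was chosen for its fall in these same libraries. Ly6c1 was called also without control replicate 1 (-1.16), where 0.142% of tested genes were called lower.

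No gene of the wider family was called, where edgeR called 1.16% of all tested genes higher and 0.303% lower. Of 37 other symbols of the Ly6/uPAR family 19 are listed and 5 were tested, with 0 called by edgeR, 0 by DESeq2 and 0 at an unadjusted p under 0.05 (9.99% of tested genes had such a p). All 5 had negative fold changes, with a median of -0.13 beside -0.003 over all tested genes, of which 51.0% were negative. That median was -0.21 without control replicate 1, -0.22 without treated replicate 3 and -0.07 with DESeq2, without a filter or with a filter of 1 CPM in 3 libraries. Genes of about the length of Ly6a, whether in the family or not, had a median of -0.09. Without control replicate 2 that median was 0.01, and the median of the tested family genes was -0.12. The family genes differ in length, and Lynx1 has 3952 bases. The part of transcript length in these values was not tested. The urokinase receptor Plaur, which focuses plasmin formation at the cell surface, had 133 ± 15.6 CPM among controls and 127 ± 5.94 with red blood cells (SD, n = 3; log2 fold change -0.07 ± 0.09 SE). Psca had 7.28 ± 0.445 and 6.63 ± 0.661 CPM, and Slurp1, a secreted family member, 1.16 ± 0.396 and 0.736 ± 0.156 CPM. Libraries of the groups overlapped in all 5 genes. Gpihbp1, the Ly6-type protein that carries lipoprotein lipase across capillary endothelium, has no row in the table used.

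In RefSeq's gene order on chromosome 15 (GRCm38.p6) Ly6e, Ly6a and Ly6c1 follow each other with no other tested gene between them. Within 1 Mb on either side of the members 37 other genes are listed and 25 were tested. None was called by edgeR, which called 1.16% of all tested genes higher and 0.303% lower. An unadjusted p under 0.05 in edgeR was found for 4 of them, beside 9.99% of all tested genes. DESeq2, which called 1.3% of its genes higher, called 1, Mroh4. The median of the 25 was -0.01 (-0.03 to 0.05 with a library left out, above 0 without control replicate 2 or 3 or treated replicate 2 or 3), and in 5 of them the libraries did not overlap, each time with higher treated libraries (10.4% of all tested genes). Lynx1 (-0.03 ± 0.10 SE), a modulator of nicotinic acetylcholine receptors, and Zfp41 (0.12 ± 0.07), a zinc finger gene, were the nearest tested genes on each side and were chosen for their position. Mroh4 had 4.73 ± 0.799 and 7.86 ± 1.04 CPM (SD, n = 3; 0.73 ± 0.15 SE), and was called also without control replicate 2, where 4.19% of tested genes were called higher. Gsdmd, the pore-forming executioner of pyroptosis, had 18.3 ± 1.08 and 21.6 ± 0.781 CPM, and Jrk 42.9 ± 3.31 and 49.3 ± 2.29 CPM.

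**Figure D2:**
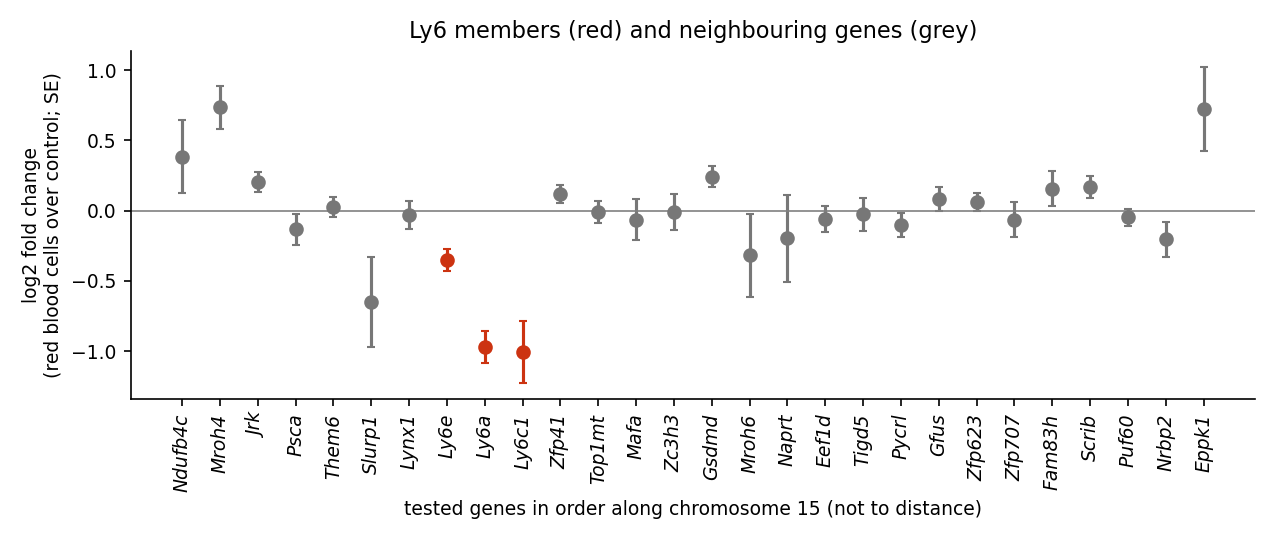
Log2 fold change with its SE (y axis) of the 3 tested Ly6 members (red) and 25 tested neighbours (grey), in their order along chromosome 15 (x axis, not to distance). The members are adjacent and lie at -0.35, -0.97 and -1.01, while Lynx1 and Zfp41 beside them lie at -0.03 and 0.12.

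The Ly6 members are left out of the lists below. None of the tested genes in the type I interferon and interferon-gamma lists was called lower. Only 0.303% of all tested genes were, so the lack of such calls in short lists tells little. Of 38 symbols of genes induced by type I interferon 33 are listed and 22 were tested. EdgeR called 1 higher (1.16% of all tested genes were) and 0 lower, with a median log2 fold change of 0.07, which was 0.02 without control replicate 2. An unadjusted p under 0.05 in edgeR was found for 4, beside 9.99% of all tested genes. The called gene was Parp14, an ADP-ribosyltransferase, with 0.695, 0.762 and 0.785 CPM among controls and 1.56, 1.69 and 1.61 CPM with red blood cells. DESeq2 did not call it but called Rsad2, an antiviral enzyme with 0 and 22 counts over the groups. Without control replicate 2, where 4.19% of tested genes were called higher, Parp14, Ddx58 and Ifitm3 were called, and without any other library none. Isg15, a ubiquitin-like protein and standard marker of the response, had 123 and 101 counts over the groups (-0.30 ± 0.25 SE), Oasl1 18 ± 2.14 and 15.1 ± 0.442 CPM (-0.26 ± 0.10 SE), and Ifi27 7.83 ± 0.254 and 6.76 ± 0.815 CPM (-0.21 ± 0.11 SE). These 3, chosen after their values were seen, had the lowest fold changes of the list. The value of Ly6e (-0.35 ± 0.08 SE) lay within the SE of Isg15.

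Among the targets of interferon-gamma the calls were all higher. Of 29 symbols 24 are listed and 15 were tested. Of these 14 had positive fold changes (median 0.14, the same with Cd74 at its bound), beside 5497 of all 11208 tested genes. An unadjusted p under 0.05 in edgeR was found for 7, beside 9.99% of all tested genes. In 7 the libraries did not overlap, each time with higher treated libraries (10.4% of all tested genes). Cd74 is in each of these counts. EdgeR called 3 higher and 0 lower, beside 1.16% and 0.303% of all tested genes. Cxcl10, a chemokine for T cells, had 0.710 ± 0.178 CPM among controls and rose to 2.89 ± 0.200 CPM (SD, n = 3), a log2 fold change of 2.01 ± 0.21 (SE). Irf1, a transcription factor of the interferon response, rose from 27.1, 25.6 and 27.4 CPM to 35.6, 32.8 and 33.0 CPM (0.34 ± 0.07 SE). Its call was lost without any single library other than control replicate 2 and with the replicate block. Cd74, which chaperones class II MHC molecules, went from 0 to 67 counts over the groups. It passed the filter only through the treated libraries and could only be called higher. Set against 3 counts for the control group, it was at least 22-fold higher. Cxcl10 and Irf1 are also known NF-kB targets, and Cd74 is abundant in B cells and other leukocytes. The guanylate-binding proteins Gbp2 and Gbp3 and the tRNA synthetase Wars were called higher only without control replicate 2, where 4.19% of tested genes were.

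**Figure D3:**
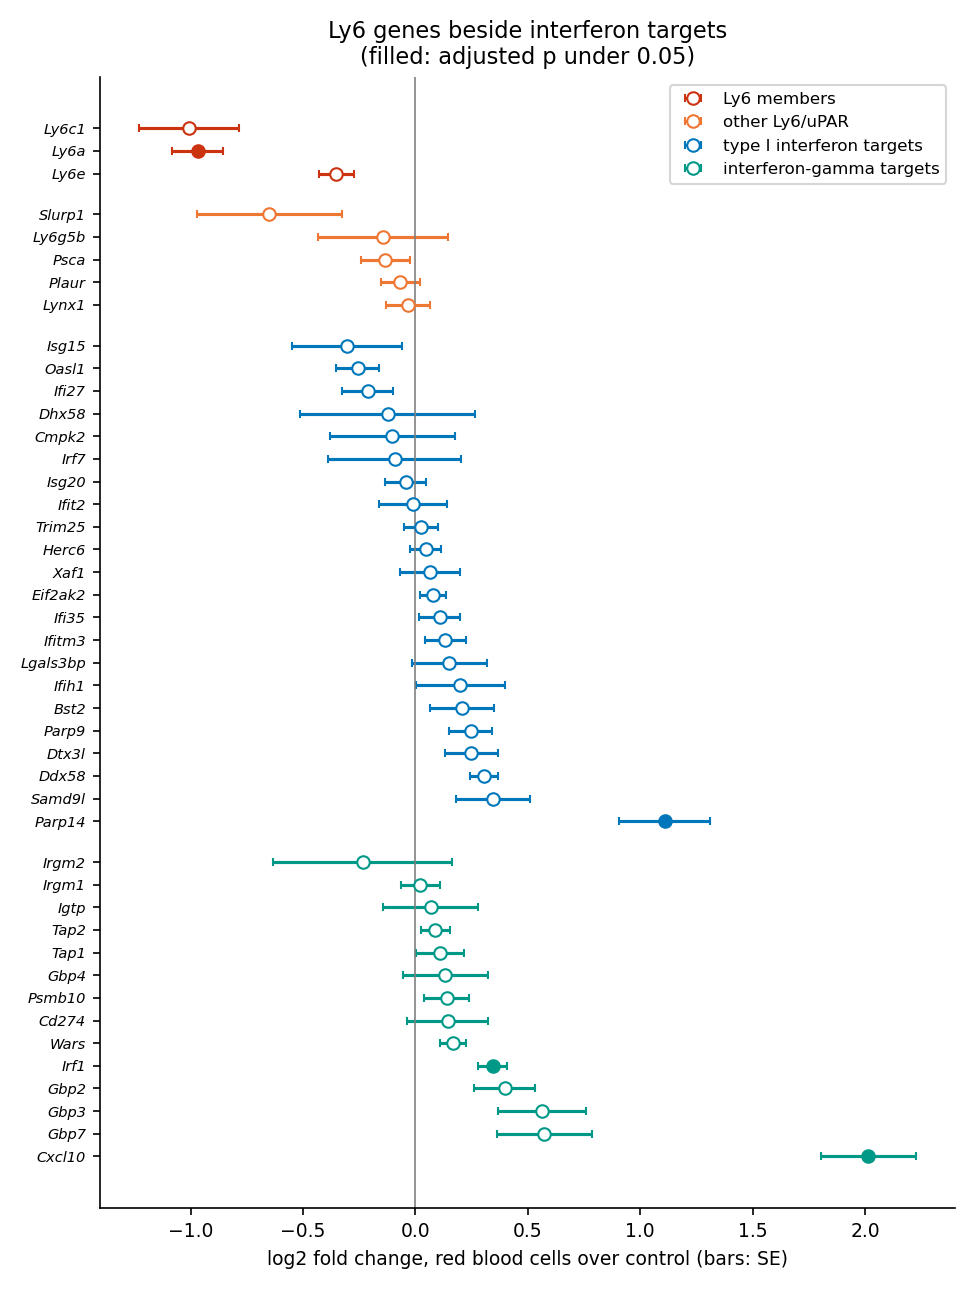
Log2 fold change with its SE (x axis) of the tested Ly6 members, other Ly6/uPAR genes, and type I and gamma interferon targets, with filled points for genes called by edgeR. Cd74, at 0 counts in the controls, is left out. Ly6a, at -0.97, was chosen for its fall, so nothing is read from its place below the targets. The called targets Irf1, Parp14 and Cxcl10 lie at 0.34, 1.11 and 2.01.

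The receptors and transducers of interferon showed no call, where edgeR called 1.16% of all tested genes higher and 0.303% lower. Of 20 genes 17 are listed and all 17 were tested, with 0 called by edgeR and 0 by DESeq2 (median 0.05, and 0.01 without control replicate 2). An unadjusted p under 0.05 was found in edgeR for 9.99% of all tested genes and here for 1 gene. That gene was Ifngr2, a chain of the interferon-gamma receptor, with 23.9 ± 0.714 CPM among controls and 28.8 ± 1.94 with red blood cells. It was called higher without control replicate 2, where 4.19% of tested genes were. The interferon genes Ifnb1 and Ifng have no row in the table used.

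The lipid anchor that Ly6 proteins share is built by the enzymes of GPI synthesis. All 31 genes of that list are listed and 29 were tested, with 0 called by edgeR, 0 by DESeq2 and 0 at an unadjusted p under 0.05. Over all tested genes edgeR called 1.16% higher and 0.303% lower, and 9.99% had such a p. DESeq2 called 1.3% of its genes higher and 0.437% lower. Their fold changes lay between -0.24 and 0.22 on the log2 scale, with a median of -0.001 (-0.04 to 0.02 with a library left out). The smallest p-values were those of Pigu (-0.15 ± 0.07 SE), Pigp (-0.21 ± 0.10) and Pign (0.20 ± 0.11). Among 23 tested genes of other GPI-anchored proteins 1 was called higher and 0 lower (median -0.001, and -0.05 to 0.02 with a library left out). Gfra2, a co-receptor for neurturin, rose from 10.4 ± 1.76 to 16.5 ± 0.230 CPM (SD, n = 3), a call lost without any one treated library. The lowest log2 fold change of those 23 was -0.27 ± 0.15 (SE) for Nt5e, a gene chosen after its value was seen. The value of Ly6e (-0.35 ± 0.08 SE) lay within the SE of Nt5e.

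Blood cell transcripts were higher in the libraries in which the Ly6 genes were lower. The 13 erythroid markers summed to 40.6 to 45.3 CPM among controls and 580.0 to 666.1 CPM with red blood cells, with 5 of 6 tested members called higher. The 18 listed leukocyte markers summed to 42.7 to 48.8 CPM among controls and 50.4 to 56.2 CPM with red blood cells. Of these 6 had 0 counts over the controls and 1 had 0 counts over the treated libraries. EdgeR called 3 of 5 tested higher, beside 1.16% of all tested genes. Ptprc, the pan-leukocyte antigen CD45, had 0 and 36 counts, Adgre1, the macrophage antigen F4/80, 0 and 48, and Lyz2 14 and 83. Ptprc and Adgre1 passed the filter only through the treated libraries and could only be called higher. With a filter of 1 CPM in 3 libraries 3 leukocyte markers were tested and 1, Lyz2, was called. Leaving out treated replicate 1 or 2 left 1 of these leukocyte calls. Leaving out control replicate 2 gave 5, where 4.19% of tested genes were called higher. The neutrophil antigen Ly6g, chosen after its values were seen, had 2 and 0 counts. The erythroid list held at most 666.1 CPM. The part of either cell type in the lower Ly6 levels was not tested.

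By the likeness of its profile over the 6 libraries, which fall into 2 groups, Ly6a had its closest matches in genes that differed far less between groups. Among 8861 tested genes of at least 10 CPM, the highest Pearson correlations of log2 CPM with Ly6a were those of G6pdx, the first enzyme of the pentose phosphate pathway (r = 0.991), Gstm1, a glutathione transferase (0.989), Fech, the last enzyme of heme synthesis (0.988), Slc47a1, an organic cation exporter (0.987), and Nr2f2 (0.985). Their log2 fold changes lay between -0.12 for Fech and -0.26 for Gstm1, and none was called. Ly6e ranked 75th with r = 0.93, and Ly6c1, under 10 CPM, had r = 0.81. These correlations describe 6 libraries that share their groups.

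**Figure D4:**
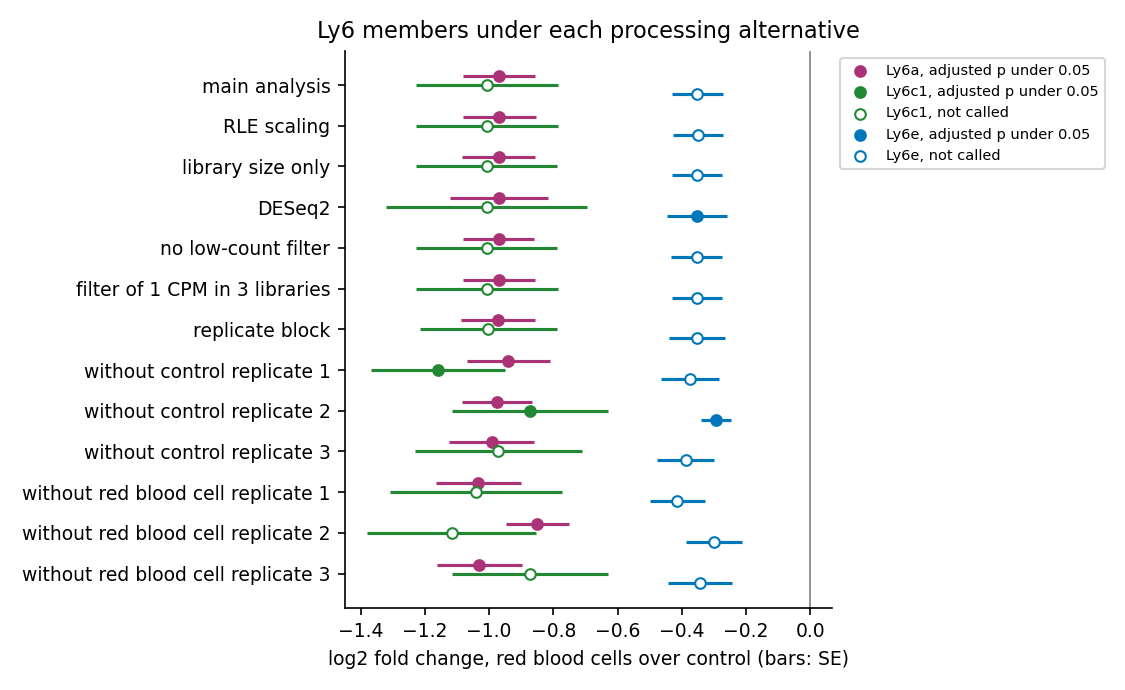
Log2 fold change with its SE (x axis) of Ly6a, Ly6c1 and Ly6e in the main analysis and 12 alternatives (y axis), with filled points where the adjusted p was under 0.05. Ly6a stays between -1.03 and -0.85 and is filled throughout, while Ly6c1 and Ly6e are filled in 2 alternatives each. Ly6a was chosen for its fall in these libraries, so nothing is read from its filled points.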

How the data were processed

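Poly(A) RNA of 3 control and 3 red blood cell libraries was analysed; groups and replicate numbers come from the sample titles. The authors deposited raw counts per gene symbol and FPKM, which are the counts divided by gene model length and the library total (checked on the tables). The build is GRCm39 per the submitters' processing notes; the aligner, counter and strand setting are not given in the sources used. FPKM served only to compare levels between genes.

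Tests on counts used edgeR 4.0.16 under R 4.3.3 (TMM scaling, filterByExpr with a minimum count of 10 and total of 15, glmQLFit and glmQLFTest, two-sided, Benjamini-Hochberg over 11208 genes). A call is an adjusted p under 0.05. CPM are counts scaled to the total of the listed counts. The procedure was tested on simulated data in which all libraries had the same spread. That simulation does not cover a library that stands apart, as control replicate 2 does. Alternatives were RLE and library-size scaling, DESeq2 1.42.0, other filters, the replicate number as a block, and leaving out each library. The members and gene lists were chosen with earlier results of these data known. Named genes are the members, called genes of each list (otherwise up to 3 of smallest p) and the 5 genes most correlated with Ly6a; genes called only in an alternative, defining endothelial markers and the nearest neighbours are also named, and others are marked as chosen after their values were seen.

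Correlations of same-numbered libraries' deviations from their group means were -0.0141, 0.0448 and 0.0630, so the numbers were not taken to pair samples.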

Additional observations from a re-analysis of the deposited data

How the results depend on the processing

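Ly6a, Ly6e and Ly6c1 stayed below 0 in all 12 alternatives, and Ly6a kept its call in each. Since Ly6a was chosen for its fall in these same libraries, nothing is read from its calls in refits of them. Ly6e was called with DESeq2 (-0.35) and without control replicate 2 (-0.29), with -0.41 to -0.29 over the 6 fits with a library left out; Ly6c1 was called without control replicate 1 (-1.16) and 2 (-0.87), with -1.16 to -0.87. The members called lower numbered 2 with DESeq2 and 1 to 3 with a library left out. Over all genes 164 were called, 130 higher and 34 lower, against 62 to 899, 60 to 473 and 2 to 426 with a library left out; DESeq2 called 60 lower. Among type I interferon targets 0 to 3, among interferon-gamma targets 2 to 6 and among chromosome neighbours 0 to 3 were called higher with a library left out, and 1 neighbour with DESeq2 and 1 without a filter. Leaving out a library included refiltering, so the tested genes differ. With the replicate number as a block 13 genes were called lower, 0 type I targets higher, and Ly6a kept its call. Not every library correlated best with its own number. The causes of these shifts were not tested. Ly6c1 had 149 and 75 counts over the groups, and Ly6c2 too few for a test.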

Other observations

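Among the Ly6/uPAR genes too scarce to test, some had unequal counts, which is why they are named here. Ly6d, a marker of B cell precursors and of stratified epithelium, had 0 counts over the controls and 16, 1 and 4 counts in treated replicates 1 to 3. Treated replicate 1 thus held most of them. Lypd3, a surface protein of squamous epithelium, had 37 and 18 counts over the groups, a ratio of 0.479 (exact 95% interval 0.257 to 0.863, counting error only). Lypd10 had 8 control counts and 0 with red blood cells, and Ly6f had 6 and 4.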
